A study of Homo sapiens with 6 samples.

Results

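The comparison described here set 2 arrays of H9 cells that carried a phosphomimetic histone H2A.X, S139E, against 2 arrays of H9 cells that carried eGFP alone. These 4 samples were chosen by their descriptions, gamma_ON replicates 1 and 2 and CTRL replicates 1 and 2, out of 6 arrays in the series. H9 is an established human embryonic stem cell line. The CTRL vector was pHIV-EF1α-IRES-eGFP and the gamma_ON vector was the same lentiviral backbone with H2A.X S139E placed before the IRES. The remaining 2 arrays, gamma_OFF, carried H2A.X with T136A and S139A and enter here through the shared estimate of spread and a side-by-side reading of values. In all 3 groups the EF1α promoter drove the insert, cells positive for both GFP and TRA 1-60 were sorted, and colonies grown from single cells were expanded on mouse embryonic fibroblasts in medium conditioned by such cells that held bFGF at 8 ng/ml. Each sample is thus a clone under a constitutive promoter, and the labels do not state whether the replicates of a vector are different clones or cultures of a single clone, so the p-values reflect only how far these particular samples scatter, and that scatter may be technical. No group received H2A.X without a substitution, and the endogenous gene was not reported as removed, so the substitution and the added histone cannot be told apart. H2AX had no named row among the array rows used, and its level was not analysed here.

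H2A.X is a variant of histone H2A that sits in a minority of nucleosomes along the genome. When DNA breaks, the kinases ATM, ATR and DNA-PK phosphorylate the serine near its carboxyl end, and the modified form, gamma-H2A.X, anchors MDC1 and further repair and checkpoint factors on the flanking chromatin. Embryonic stem cells are known for a high basal level of gamma-H2A.X without induced damage, a very short G1 phase and a nearly continuous supply of replication factors. A glutamate in place of the serine is used as a mimic of the phosphorylated residue.

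Values are log2 levels per array row, so a difference of 1 is a factor of 2, and levels of different genes are not comparable on this scale. A gene with several rows was represented by the brightest of them, judged by its mean level on all 6 arrays, and this left 14884 genes. The array pairs of CTRL and of gamma_ON correlated across genes at 0.994 each, and gamma_OFF at 0.986. Of 12 listed markers of pluripotent cells 11 were measured, and their mean log2 level was 10.01 and 10.15 on the CTRL arrays and 10.26 and 10.19 on the gamma_ON arrays. Of these 11 markers 1 was called, higher. A wider list of the pluripotency network had 45 measured genes, 6 called higher and 1 lower, 15.6% against 1.55% of all genes. NANOG, a core pluripotency factor, stood at 6.26 and 6.70 on the CTRL arrays and 6.81 and 6.65 on the gamma_ON arrays, and SOX2, its partner, at 11.39 and 11.43 on the CTRL arrays and 11.73 and 11.57 on the gamma_ON arrays. Of 14 listed markers of fibroblasts, the kind of cell in the feeder layer, 5 had a value, with a mean level of 7.67 and 7.49 on the CTRL arrays and 7.69 and 7.63 on the gamma_ON arrays, and TAGLN alone was called, lower. The list of 23 hepatic and visceral endoderm markers, 18 of them measured, had a mean level of 7.44 and 7.21 on the CTRL arrays and 8.59 and 8.63 on the gamma_ON arrays; 8 were called, all higher. The neural list had 14 measured genes and a mean level of 7.48 and 7.36 on the CTRL arrays and 7.08 and 7.07 on the gamma_ON arrays, with STMN2 and ZIC1 lower, and the trophoblast and amnion list had 11, with HAND1 and ISL1 higher, though the other row of ISL1 stood at -0.02. None of the 13 measured endothelial and blood markers or of the 8 measured cardiac and muscle markers was called by limma; 2 and 1 of them had an unadjusted p under 0.05. RNA from bulk samples was measured, so fewer cells of a type and less RNA per cell cannot be told apart, and the part these marker shifts play in the results was not tested.

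Against CTRL, limma called 230 genes in gamma_ON at an adjusted p under 0.05, 1.55% of all genes tested; 110 were higher, 0.739%, and 120 were lower, 0.806%. At least a 2-fold difference was seen in 69 of the called genes, 0.464% of all. The CTRL and gamma_ON arrays did not overlap in 52.4% of all genes. The calls rest on these same arrays, so where a called gene is said not to overlap, that describes its values and adds no support to the call. The genes with the steepest increases encode liver-type secreted proteins, with AFP, the fetal serum albumin, first. Over all genes, that group included, the calls were counted by kind of transcript. Of 11916 protein-coding genes 100 were called higher and 67 lower, of 1398 long noncoding RNA genes 5 higher and 20 lower, and of 1072 microRNA genes 4 higher and 28 lower. The median log2 difference was 0.03 over protein-coding genes, -0.01 over long noncoding RNA genes and -0.05 over microRNA genes, against 0.02 over all genes; after quantile normalization that of long noncoding RNA genes was 0.02. The long noncoding RNA calls were 3 higher and 4 lower without CTRL replicate 1, 1 and 0 without CTRL replicate 2, 2 and 1 without gamma_ON replicate 1 and 1 and 0 without gamma_ON replicate 2, so their split did not hold with fewer arrays. Only 26 of the 230 calls, 21 higher and 5 lower, were made whichever of the 4 arrays was left out. Leaving out CTRL replicate 1 gave 91 calls, CTRL replicate 2 gave 38, gamma_ON replicate 1 also gave 38 and gamma_ON replicate 2 gave 34. The number was 487 when the spread was taken from the CTRL and gamma_ON arrays alone. Across genes gamma_OFF replicate 2 correlated least with the CTRL and gamma_ON arrays, at 0.969 to 0.974. What part it had in the difference in number was not tested.

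**Figure D1:**
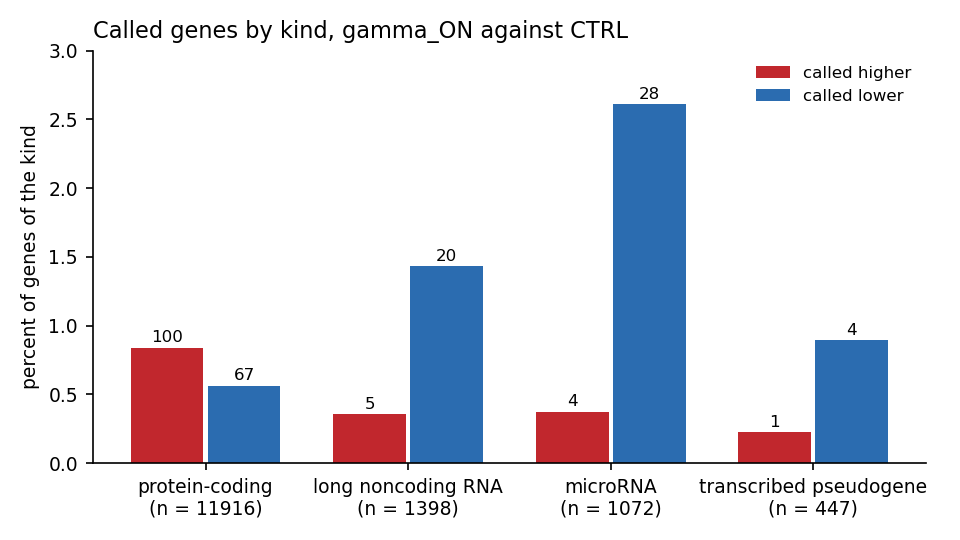
Bars give the percent of genes of each kind of transcript that limma called higher (red) or lower (blue) in gamma_ON than in CTRL, with the number of genes above each bar and the number measured under each name. Protein-coding genes have 100 higher and 67 lower calls, and microRNA genes have 4 higher and 28 lower.

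MicroRNAs are short RNAs that repress messenger RNAs through pairing with their seed, bases 2 to 8, and human pluripotent cells are known for the MIR302 and MIR367 cluster and for relatives of the oncogenic MIR17 to MIR92A cluster. The most negative microRNA row in gamma_ON was MIR19B2, on the X-chromosomal MIR106A to MIR363 cluster, a relative of that second family. RefSeq (GRCh38.p14) held an entry for 998 of the 1072 measured microRNA genes and for 26 of the 32 called ones. The array rows are named by gene, and levels of mature microRNAs were not measured apart from their precursors. The mature sequences below are those annotated for genes discussed here, 5′ to 3′ with the seed in capitals. First come the members of the MIR106A to MIR363 cluster, ordered by shared seed, then 1 member of the MIR302 and MIR367 cluster for comparison. Other microRNAs whose rows were lower follow, and last miR-4521, whose row was higher.
hsa-miR-106a-5p: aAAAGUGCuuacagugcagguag
hsa-miR-20b-5p: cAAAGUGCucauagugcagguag
hsa-miR-18b-5p: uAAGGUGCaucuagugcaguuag
hsa-miR-19b-3p: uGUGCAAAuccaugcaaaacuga
hsa-miR-92a-3p: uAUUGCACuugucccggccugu
hsa-miR-363-3p: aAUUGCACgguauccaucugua
hsa-miR-302a-3p: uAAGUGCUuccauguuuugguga
hsa-miR-4712-5p: uCCAGUACaggucucucauuuc
hsa-miR-4295: cAGUGCAAuguuuuccuu
hsa-miR-205-5p: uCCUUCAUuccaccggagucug
hsa-miR-579-3p: uUCAUUUGguauaaaccgcgauu
hsa-miR-3189-3p: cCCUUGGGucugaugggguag
hsa-miR-548c-3p: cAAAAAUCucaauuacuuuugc
hsa-miR-4521: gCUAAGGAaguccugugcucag
The seed AAAGUGC is shared by miR-106a-5p and miR-20b-5p, and AUUGCAC by miR-92a-3p and miR-363-3p. No seed was shared between 2 of the called lower genes that had an entry. The mature miR-19b-3p lies at chrX:134169683-134169705 and miR-4521 at chr17:8186948-8186969.

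All 6 measured rows of this cluster had negative differences in gamma_ON, and 2 were called. MIR19B2 stood at 4.98 and 5.70 on the CTRL arrays and 3.33 and 3.21 on the gamma_ON arrays, and MIR20B at 4.88 and 5.40 on the CTRL arrays and 3.79 and 3.94 on the gamma_ON arrays. Both rows fell, by 2.07 (SE 0.23, adjusted p = 0.00326) and 1.28 (SE 0.17, adjusted p = 0.00922). Neither overlapped between the groups, a pattern of 52.4% of all genes. The other 4 rows of the cluster did not pass: MIR18B at -1.27 (SE 0.42, adjusted p = 0.195), MIR106A at -0.95 (SE 0.25, adjusted p = 0.114), MIR363 at -0.46 and MIR92A2 at -0.13. None of the 5 rows of the MIR302 and MIR367 cluster was called, 1 had an unadjusted p under 0.05, and they lay between -0.51 and 0.14, and those of MIR371A, MIR372 and MIR373, another stem cell cluster, between -0.30 and 0.02. MIR19B2 matches another genomic copy in its mature form, so its row is uncertain as to locus. These clusters were picked after their values were seen, and their counts are descriptions. The call was lost for MIR20B without CTRL replicate 2, gamma_ON replicate 1 or gamma_ON replicate 2 (adjusted p 0.0694 to 0.119), and for MIR19B2 without gamma_ON replicate 2 (adjusted p = 0.0513).

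Beyond the cluster, MIR4712 stood at 4.82 and 5.01 on the CTRL arrays and 3.29 and 3.18 on the gamma_ON arrays, a fall of 1.68 (SE 0.12, adjusted p = 0.000385). MIR205, whose product is known as a keeper of epithelial state, stood at 8.38 and 8.72 on the CTRL arrays and 7.46 and 7.51 on the gamma_ON arrays and fell by 1.06 (SE 0.14, adjusted p = 0.00753). In both genes every gamma_ON array was below every CTRL array. MIR4295, which carries the AGUGCAA seed of the miR-130 family, changed by -1.40, MIR579 by -1.05 and MIR449A, of the miR-34 seed family, by -0.64. The 6 measured genes with the AGUGCAA seed had a median of -0.07. The median was -0.13 over the 3 measured rows of the MIR449 cluster, and -0.64 over the 3 measured genes with the seed of MIR449A. MIR3189 lies within GDF15, and both fell, by 1.22 and 1.40. By RefSeq, 13 called microRNAs lay on the strand of a single measured host gene, and MIR3189 was the 1 whose host was called the same way. The hosts ZFR of MIR579, VTI1A of MIR4295, WDR26 of MIR4742 and HBS1L of MIR3662 stood at 0.11, 0.00, -0.02 and 0.00. The MIR548 family, primate microRNAs derived from a transposable element, had 40 measured rows with a median of -0.22, 5 of them lower and none higher. Of all 1072 measured microRNA rows 28 were called lower. Its member MIR548C fell by 1.76 on its brighter row and stood at -0.09 on its other row. MIR1206 and MIR1204, from the PVT1 locus, fell by 1.43 and 0.98. With an array left out, the call was lost for MIR4295, MIR449A and MIR1204 whichever of the 4 arrays was left out (adjusted p 0.0597 to 0.32), for MIR205, MIR579 and GDF15 without CTRL replicate 2, gamma_ON replicate 1 or gamma_ON replicate 2 (adjusted p 0.0551 to 0.102), for MIR3189 and MIR1206 without CTRL replicate 1, CTRL replicate 2 or gamma_ON replicate 2 (adjusted p 0.0606 to 0.189), and for MIR548C without CTRL replicate 2 or gamma_ON replicate 1 (adjusted p 0.156 to 0.157). MIR4712 was called whichever of the 4 arrays was left out.

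The 4 microRNA rows that rose were MIR4521, MIR3909, MIR1237 and MIR330. MIR4521 stood at 7.44 and 7.29 on the CTRL arrays and 8.95 and 8.89 on the gamma_ON arrays, which is 2.93-fold, a log2 difference of 1.55 (SE 0.12, adjusted p = 0.000652). Its second row gave 1.07. MIR3909, MIR1237 and MIR330 rose by 0.88, 0.79 and 0.63. Signal was low for most of these rows: 5 of the 32 called microRNA rows, and 218 of the 1072 measured, reached 7.07, the median level of all named rows. With rows below that level left out, 2 microRNA rows were called higher and 8 lower; with the spread from 4 arrays alone 46 were lower, and after quantile normalization 14. The number lower was 15 without CTRL replicate 1 and 4 without any other of the CTRL and gamma_ON arrays. Leaving out an array ended the call for MIR3909, MIR1237 and MIR330 whichever of the 4 arrays was left out (adjusted p 0.116 to 0.246). MIR4521 was called whichever of the 4 arrays was left out.

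**Figure D2:**
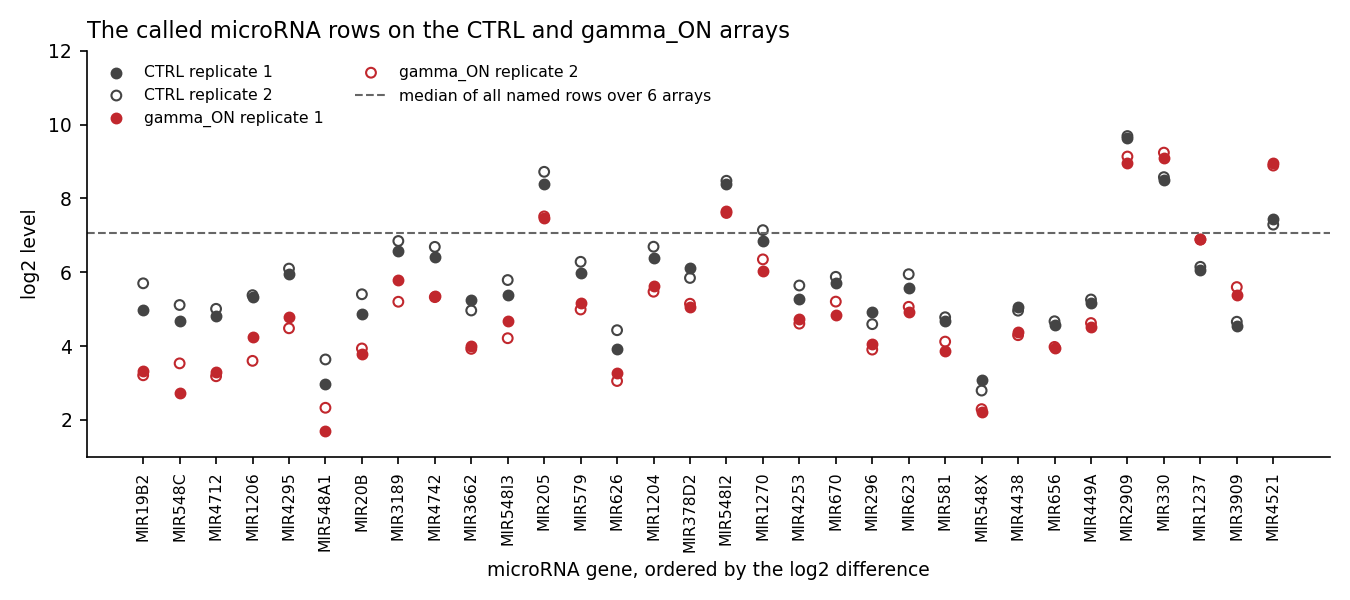
Log2 level (y axis) of the 32 called microRNA rows on the CTRL (dark grey) and gamma_ON (red) arrays, filled for replicate 1 and open for replicate 2, ordered by the log2 difference from most negative to most positive. The dashed line, at 7.07, is the median level of all named rows, and 27 of the 32 rows have their mean over the 6 arrays below it.

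Among other noncoding transcripts more calls were lower than higher with all arrays, a split that was lost for long noncoding RNA genes with fewer arrays, as given above. MALAT1, an abundant nuclear RNA linked to splicing bodies, stood at 12.74 and 12.69 on the CTRL arrays and 11.89 and 11.95 on the gamma_ON arrays and fell by 0.79 (SE 0.13, adjusted p = 0.0248), and its other rows gave -0.46 and -0.62. N4BP2L2-IT2, a transcript from an intron, stood at 7.34 and 7.39 on the CTRL arrays and 6.30 and 6.29 on the gamma_ON arrays and fell by 1.07. In both the gamma_ON arrays lay below the CTRL arrays. Of 458 measured LINC genes 1.75% were called, near the 1.55% of all genes. The 3 higher were LINC02381 (1.13), LINC01139 (1.00) and LINC03033 (0.90), and 5 were lower. Of 612 antisense and host transcripts none was higher and 6 were lower. These 6 are 0.980%, near the 0.806% of all genes called lower. Among them were FEZF1-AS1 at -0.96 and MIR9-2HG, host of a neural microRNA, at -0.82. Signals of a gene and of its antisense partner are told apart only as far as the probes allow, which was not checked. The 23 measured scaRNAs, which guide modification of spliceosomal RNAs in Cajal bodies, had a median of -0.25, with 19 of 23 negative, where 45.6% of all genes were. SCARNA23 fell by 0.81 (adjusted p = 0.0186), and SCARNA3, at -0.72 (adjusted p = 0.0531), did not pass. MALAT1 was chosen after its values were seen. Not every call held with fewer arrays: it was lost for MALAT1, LINC03033, FEZF1-AS1 and MIR9-2HG whichever of the 4 arrays was left out (adjusted p 0.0603 to 0.218), for LINC01139 and SCARNA23 without CTRL replicate 2, gamma_ON replicate 1 or gamma_ON replicate 2 (adjusted p 0.0513 to 0.2), and for N4BP2L2-IT2 and LINC02381 without CTRL replicate 2 or gamma_ON replicate 2 (adjusted p 0.0506 to 0.0617).

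Genes of DNA replication and mitosis were displaced upward by small amounts that almost never passed the test. Origin licensing loads the MCM helicase on DNA before S phase, and 12 of its 19 listed genes were measured, most of them MCM genes. All 12 had a positive difference, where 54.4% of all genes did, and their median was 0.37. limma called none of the 12, while 7 had an unadjusted p under 0.05, against 14.8% of all genes, and the median was 0.31 to 0.44 when an array was left out. In all 12 the gamma_ON arrays lay above the CTRL arrays, a pattern of 30.0% of all genes. MCM2, a subunit of the helicase, stood at 9.36 and 9.29 on the CTRL arrays and 9.97 and 9.80 on the gamma_ON arrays, a difference of 0.56 (SE 0.12, adjusted p = 0.0605). MCM6 stood at 9.58 and 9.72 on the CTRL arrays and 10.24 and 10.08 on the gamma_ON arrays, a difference of 0.51 (SE 0.15, adjusted p = 0.158). MCM5 was at 0.47 and the loader CDC6 at 0.39. The 17 genes of the fork had the same median, 0.37, with 16 positive: GINS2, of the GINS helicase partner, was at 0.61 (SE 0.18, adjusted p = 0.158), the checkpoint mediator CLSPN at 0.58 and the flap nuclease FEN1 at 0.57. The list of deoxynucleotide supply had 10 of 19 positive and a median of 0.04 (-0.02 to 0.07 when an array was left out); RRM2, a subunit of ribonucleotide reductase, was at 0.55 and TYMS, thymidylate synthase, at 0.51, while DUT, which clears dUTP, was at -0.36 and SAMHD1, which degrades the nucleotides, at -0.32. Genes that carry cells through mitosis had medians of 0.30 for 27 of the kinetochore, 0.29 for 26 mitotic kinases and cyclins and 0.28 for 24 spindle motors and factors. HMMR, a spindle assembly factor, stood at 9.18 and 9.22 on the CTRL arrays and 9.91 and 9.84 on the gamma_ON arrays and was the 1 called gene of these lists, 0.67 (SE 0.11, adjusted p = 0.0243). OIP5, of the centromere licensing complex, was at 0.67 (SE 0.16, adjusted p = 0.0786), FOXM1, the transcription factor of the G2/M programme, at 0.53, and CENPA, the centromeric histone, at 0.04. On 5 arrays the call was lost for HMMR whichever of the 4 arrays was left out (adjusted p 0.139 to 0.23).

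The promoters of these genes hold motifs known from cell-cycle genes, and stretches of them are shown because most members of these lists lay above 0. In the 250 bases before the RefSeq start, the E2F site was searched as TTTCCCGC, TTTCGCGC, TTTGCCGC or TTTGGCGC, the CHR element as TTTGAA and the CCAAT box as CCAAT, each on both strands; no string contains another. An E2F site was found in 4 of 10 licensing promoters with an entry and in 3.81% of 10749 promoters of all measured genes. The 4 licensing stretches (GRCh38.p14) follow, in the direction of the gene and with a site in capitals on either strand. In MCM6 a further searched string, TTTGGCGC, overlaps the marked site.
CDT1: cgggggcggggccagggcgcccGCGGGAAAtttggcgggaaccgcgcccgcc
MCM3: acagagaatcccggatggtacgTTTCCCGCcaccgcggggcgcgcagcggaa
MCM6: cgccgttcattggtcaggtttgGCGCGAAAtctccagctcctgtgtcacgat
MCM7: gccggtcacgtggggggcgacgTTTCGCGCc
They lie at chr16:88803732-88803783 (plus strand), chr6:52284887-52284938, chr2:135876500-135876551 and chr7:100101398-100101428 (minus strand). The log2 differences of these genes were 0.26, 0.34, 0.51 and 0.45, and none passed. The CHR element, known from genes of mitosis, was found in 11 of 23 spindle promoters and 8 of 18 promoters of mitotic kinases and cyclins, against 10.4% of all promoters and none of the 10 licensing promoters. The CCAAT box was in 19 of 23 spindle promoters and 34.3% of all. The called higher genes as a whole held an E2F site in 3 of 78 and a CHR element in 11 of 78 promoters. A match is a description of these letters, not a shown binding site.

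Among genes of break sensing and repair, the pathway that gamma-H2A.X serves, limma called none. Medians were 0.19 for 19 genes of break sensing and checkpoint, 0.16 for 16 of homologous recombination and the Fanconi pathway, 0.08 for 8 of end joining and 0.12 for 17 of mismatch and excision repair. In the same order 7, 4, 0 and 2 had an unadjusted p under 0.05. MDC1, the direct reader of gamma-H2A.X, stood at 9.34 and 9.38 on the CTRL arrays and 9.72 and 9.55 on the gamma_ON arrays, a difference of 0.27 (SE 0.12, adjusted p = 0.334). The groups of MDC1 did not overlap, a pattern of 52.4% of all genes in either direction. PAXIP1, an adaptor recruited through MDC1, was at 0.55 (SE 0.12, adjusted p = 0.0668), NBN of the end-resecting MRN complex at 0.45, the recombinase paralogues RAD51C and RAD51B at 0.52 and -0.42, and the end-joining subunits XRCC5 and XRCC6 at 0.20 and 0.07. Of 21 p53 target genes GDF15, a secreted stress cytokine, and PURPL, a noncoding RNA induced by p53, fell and 19 did not pass, with a median of -0.19 and 19 of 21 negative. Of all genes 0.806% were called lower and 45.6% were negative. PURPL stood at 9.62 and 9.88 on the CTRL arrays and 8.37 and 8.37 on the gamma_ON arrays, a fall of 1.38 (SE 0.17, adjusted p = 0.00651), with no overlap between the groups. None of the 22 regulators of apoptosis was called by limma, 2 had an unadjusted p under 0.05, and their median was -0.01; the p53 target PMAIP1 was at -0.45 (SE 0.19, adjusted p = 0.302). The call was lost for GDF15 and PURPL without CTRL replicate 2, gamma_ON replicate 1 or gamma_ON replicate 2 (adjusted p 0.0551 to 0.0779).

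**Figure D3:**
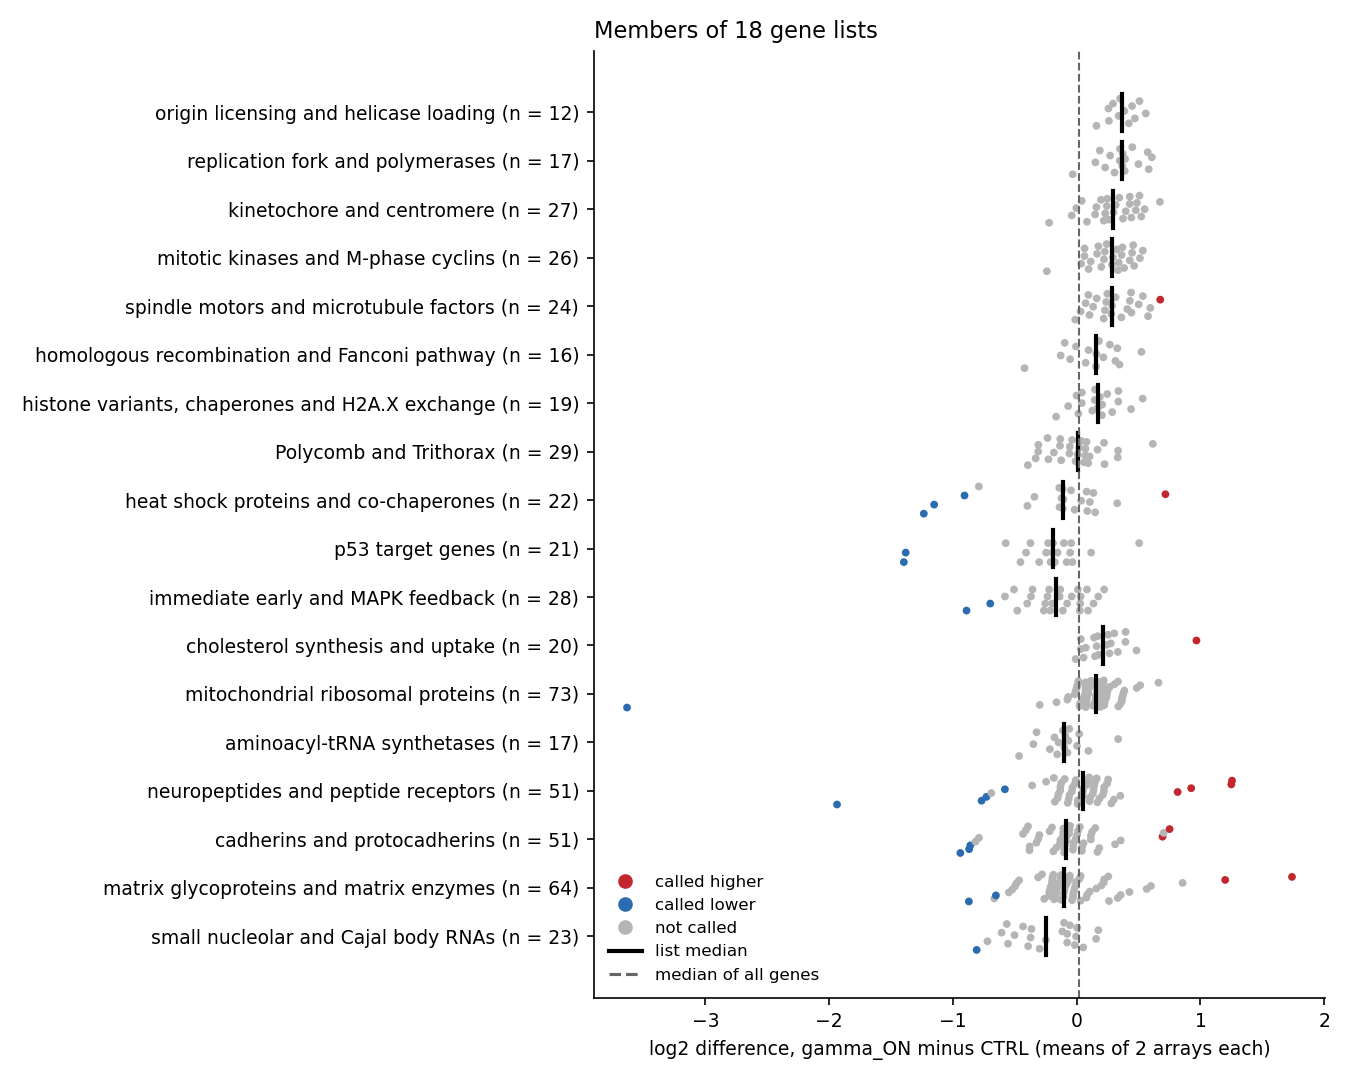
Log2 difference of gamma_ON minus CTRL (x axis) for the measured members of 18 gene lists, 1 point per gene, red where called higher, blue where called lower and grey where not called; the black bar is the median of the list and the dashed line that of all genes. Licensing genes lie wholly to the right of 0, with a median of 0.37 and no call, and the heat shock list holds 3 lower calls and 1 higher. MRPL22, at -3.63, is the point at the far left.

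Chromatin genes gave 1 call, and their lists differed in how many members were positive. Among 45 histone deacetylases, acetyltransferases and demethylases KAT2A, the acetyltransferase subunit GCN5 of SAGA, was called. It stood at 9.57 and 9.77 on the CTRL arrays and 9.01 and 8.94 on the gamma_ON arrays, a fall of 0.69 (SE 0.12, adjusted p = 0.0304), with no overlap. None of 19 histone variants and chaperones, 29 Polycomb and Trithorax genes, 21 remodellers or 13 genes of DNA methylation was called by limma, 5, 7, 1 and 4 of them had an unadjusted p under 0.05, and their medians were 0.17, 0.01, 0.06 and 0.07. Over all genes 54.4% were positive, and 30.0% had gamma_ON above CTRL on all arrays. Histone variants and chaperones had 16 of 19 positive and 14 of 19 with gamma_ON above CTRL on all arrays. Positive were also 11 of 13 DNA methylation genes, and 32 of 45 deacetylases, acetyltransferases and demethylases, with a median of 0.07. Remodellers, with 13 of 21 positive, and Polycomb and Trithorax genes, with 15 of 29, were near the share of all genes. EZH2, the methyltransferase of Polycomb complex 2, was at 0.62 (SE 0.13, adjusted p = 0.0592), and UHRF1, which guides maintenance methylation at the fork, at 0.56 (SE 0.13, adjusted p = 0.0786). DNMT3L, the partner of the de novo methyltransferases, was at -0.40. NASP, a histone chaperone, was at 0.34, and the FACT subunits SUPT16H and SSRP1, which can exchange H2A.X, at 0.13 and 0.17. A pair of genes outside the lists, chosen after their values were seen, act on nucleosomes. HMGN5, a nucleosome-binding protein that opens compact chromatin, stood at 6.21 and 6.21 on the CTRL arrays and 7.26 and 7.12 on the gamma_ON arrays and rose by 0.98 (SE 0.12, adjusted p = 0.00478). USP51, a deubiquitinase described for H2A, stood at 6.02 and 5.44 on the CTRL arrays and 6.95 and 6.74 on the gamma_ON arrays and rose by 1.11 (SE 0.18, adjusted p = 0.0228). Their groups did not overlap. With an array left out, the call was lost for KAT2A whichever of the 4 arrays was left out (adjusted p 0.0949 to 0.292), and for HMGN5 and USP51 without CTRL replicate 2, gamma_ON replicate 1 or gamma_ON replicate 2 (adjusted p 0.0513 to 0.205).

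Heat shock proteins hold and refold other proteins, and their list gave calls in both directions. Of 22 measured genes HSPA1A, HSPA1B and CHORDC1 fell, BAG2 rose and 18 did not pass, with a median of -0.11. The calls were 18.2% of this list, against 1.55% of all genes. HSPA1B stood at 11.13 and 11.32 on the CTRL arrays and 10.06 and 9.92 on the gamma_ON arrays, a fall of 1.24 (SE 0.13, adjusted p = 0.00267), and HSPA1A fell by 1.15; these inducible HSP70 genes are near-identical copies, so their separate values are uncertain. CHORDC1, a co-chaperone of HSP90, stood at 7.58 and 7.68 on the CTRL arrays and 6.76 and 6.68 on the gamma_ON arrays and fell by 0.91 (SE 0.14, adjusted p = 0.0155). BAG2, an HSP70 co-chaperone that inhibits the ligase CHIP, stood at 7.62 and 7.72 on the CTRL arrays and 8.37 and 8.41 on the gamma_ON arrays and rose by 0.72 (SE 0.11, adjusted p = 0.0197). In each of these genes the 2 groups were apart. HSPA2, a testis-enriched HSP70, was at -0.79 (SE 0.16, adjusted p = 0.0531), the mitochondrial chaperonin HSPD1 at 0.11 and the master regulator HSF1 at -0.05. A heat shock element, searched as GAANNTTC, which reads the same on both strands, lay in 8 of 19 promoters of the list, in 7 of 52 promoters of protein-coding genes called lower, in 3 of 75 of those called higher and in 4.55% of all. The stretches of the called members (RefSeq, GRCh38.p14, direction of the gene, an element in capitals) show that the higher and the lower genes both hold it. The stretch of CHORDC1 has a further match, gaaaattc, left in small letters.
HSPA1A: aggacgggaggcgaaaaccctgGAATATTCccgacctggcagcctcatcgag
HSPA1B: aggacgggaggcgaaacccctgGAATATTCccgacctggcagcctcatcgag
CHORDC1: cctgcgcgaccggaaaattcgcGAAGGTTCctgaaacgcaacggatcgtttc
BAG2: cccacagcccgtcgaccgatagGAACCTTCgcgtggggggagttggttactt
They lie at chr6:31815415-31815466, chr6:31827611-31827662 and chr6:57172180-57172231 on the plus strand and chr11:90223070-90223121 on the minus strand. Leaving out an array ended the call for CHORDC1 and BAG2 whichever of the 4 arrays was left out (adjusted p 0.0721 to 0.157), for HSPA1A without CTRL replicate 2, gamma_ON replicate 1 or gamma_ON replicate 2 (adjusted p 0.0571 to 0.0619), and for HSPA1B without gamma_ON replicate 2 (adjusted p = 0.0513).

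Immediate early genes, which respond to growth factors and stress within minutes, leaned lower, with 19 of 28 negative and a median of -0.17. Of all genes 45.6% were negative and 0.806% were called lower. JUN, a subunit of AP-1, stood at 8.32 and 8.41 on the CTRL arrays and 7.57 and 7.38 on the gamma_ON arrays and fell by 0.89 (SE 0.12, adjusted p = 0.00929). FOSL1, its partner FRA1, stood at 7.97 and 8.26 on the CTRL arrays and 7.44 and 7.39 on the gamma_ON arrays and fell by 0.70 (SE 0.13, adjusted p = 0.0389). Both were lower on each gamma_ON array than on each CTRL array. The other 26 did not pass: ATF3 was at -0.58 (SE 0.13, adjusted p = 0.0706), JUND at -0.51, EGR1 at 0.03, MYC at 0.08 and FOS at 0.22. Of 19 genes of the integrated stress response, which curbs translation and raises amino acid supply, GDF15 fell, and the median was -0.19 with 16 of 19 negative. Its secreted target STC2 was at -0.69 (SE 0.18, adjusted p = 0.101), the death factor DDIT3 at -0.48, and ATF4, the factor that drives the response, at 0.05. The 17 cytosolic aminoacyl-tRNA synthetases, which charge tRNAs and are also targets of ATF4, had a median of -0.10, with 13 negative, none called by limma and 4 at an unadjusted p under 0.05. The genes for folding in the endoplasmic reticulum had a median of 0.10 over 17 members, with none called and 1 at an unadjusted p under 0.05. Not every call held with fewer arrays: it was lost for JUN and FOSL1 whichever of the 4 arrays was left out (adjusted p 0.0596 to 0.335).

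Among 41 glutathione transferase and antioxidant genes GSTA2 and GSTA1, alpha-class transferases that conjugate glutathione to electrophiles and are abundant in liver, rose. Of all genes 0.739% were called higher and 0.806% lower. GSTA2 stood at 6.88 and 6.50 on the CTRL arrays and 8.60 and 8.79 on the gamma_ON arrays, a 4-fold rise (log2 2.00, SE 0.23, adjusted p = 0.004). GSTA1 stood at 7.76 and 7.95 on the CTRL arrays and 8.55 and 8.64 on the gamma_ON arrays and rose by 0.74 (SE 0.12, adjusted p = 0.0228). The 2 are close neighbours with similar sequences, so signal may be shared between their rows. NFE2L2, the factor that drives antioxidant genes, was at -0.34, its inhibitor KEAP1 at 0.61 (SE 0.19, adjusted p = 0.169) and the thioredoxin inhibitor TXNIP at -0.56. FMO1, a flavin monooxygenase of xenobiotic metabolism, rose by 0.73 (SE 0.12, adjusted p = 0.0197). Of 11 metallothioneins, which bind zinc and copper, MT1X fell and MT1F rose. MT1X stood at 10.90 and 11.09 on the CTRL arrays and 10.22 and 10.14 on the gamma_ON arrays, a fall of 0.82 (SE 0.13, adjusted p = 0.0216). MT1F stood at 8.92 and 8.60 on the CTRL arrays and 9.65 and 9.57 on the gamma_ON arrays, a rise of 0.85 (SE 0.17, adjusted p = 0.0476). The family shares much of its sequence, and the other 9 members, MT2A at 0.37 and MT1E at -0.09 among them, did not pass. On 5 arrays the call was lost for GSTA1, FMO1, MT1X and MT1F whichever of the 4 arrays was left out (adjusted p 0.0658 to 0.34), and for GSTA2 without gamma_ON replicate 2 (adjusted p = 0.0568).

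In metabolism, cholesterol synthesis leaned higher: 19 of 20 measured genes were positive, with a median of 0.21 (0.14 to 0.27 when an array was left out). Of all genes 54.4% were positive. ACAT2, which forms acetoacetyl-CoA at the head of the pathway, stood at 8.44 and 8.21 on the CTRL arrays and 9.27 and 9.31 on the gamma_ON arrays and rose by 0.97 (SE 0.13, adjusted p = 0.00863); it was the only call of the list. The next step, HMGCS1, was at 0.48 (SE 0.17, adjusted p = 0.225), DHCR7, which completes cholesterol, at 0.40, and the regulator SREBF2 at 0.07. The groups of ACAT2 did not overlap. The 34 genes of fatty acid synthesis and oxidation had a median of 0.11, no limma call and 10 genes at an unadjusted p under 0.05. VEGFA, an angiogenic growth factor and target of hypoxia, stood at 9.05 and 9.01 on the CTRL arrays and 8.44 and 8.44 on the gamma_ON arrays and fell by 0.59 (SE 0.11, adjusted p = 0.0389), while EPAS1, a hypoxia-inducible factor, was at 0.75 (SE 0.16, adjusted p = 0.0549) and HK2, a hexokinase, at 0.64 (SE 0.13, adjusted p = 0.0523). The hypoxia list as a whole, 19 genes, had a median of 0.06. Mitochondrial ribosomal proteins leaned higher, with 65 of 73 positive and a median of 0.16, and MRPL22 was the single call. MRPL22 stood at 10.14 and 10.57 on the CTRL arrays and 6.78 and 6.67 on the gamma_ON arrays, a fall of 3.63 (SE 0.16, adjusted p = 1.1e-05). That is the most negative difference of all genes tested; the next most negative of the list, MRPS25, was at -0.30. UQCRB, a subunit of respiratory complex III, stood at 6.91 and 6.94 on the CTRL arrays and 6.36 and 6.21 on the gamma_ON arrays and fell by 0.64 (SE 0.13, adjusted p = 0.0455), and the other 26 genes of complexes III, IV and the ATP synthase did not pass. Cytosolic ribosomal proteins had a median of 0.01 over 52 genes, and RPS26, of the small subunit, rose by 0.69 (SE 0.13, adjusted p = 0.043); it has near-identical copies. The 35 genes named HNRNP or SRSF, of splicing proteins and some pseudogenes, had a median of 0.15, no limma call and 4 genes at an unadjusted p under 0.05. The call was lost for VEGFA, UQCRB and RPS26 whichever of the 4 arrays was left out (adjusted p 0.121 to 0.327), and for ACAT2 without CTRL replicate 2, gamma_ON replicate 1 or gamma_ON replicate 2 (adjusted p 0.0869 to 0.116). MRPL22 was called whichever of the 4 arrays was left out.

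Among 51 genes of neuropeptides and peptide receptors 4 rose and 4 fell, 15.7% against 1.55% of all genes. NTS, which encodes neurotensin, a peptide of gut and brain, stood at 8.41 and 8.12 on the CTRL arrays and 9.51 and 9.53 on the gamma_ON arrays and rose by 1.26 (SE 0.17, adjusted p = 0.00869). GAL, which encodes galanin and is abundant in human pluripotent cells, rose by 0.93 (SE 0.14). The receptors APLNR, for apelin, and CALCR, for calcitonin, rose by 1.25 (SE 0.17) and 0.82 (SE 0.15). APLNR stood at 7.45 and 7.23 on the CTRL arrays and 8.81 and 8.37 on the gamma_ON arrays and CALCR at 5.01 and 5.04 on the CTRL arrays and 5.88 and 5.79 on the gamma_ON arrays, with no overlap in either. EDN1, the vasoconstrictor endothelin, and its receptor EDNRB both fell, by 0.77 (SE 0.13, adjusted p = 0.0259) and 0.73 (SE 0.13, adjusted p = 0.0323). EDN1 stood at 7.37 and 7.64 on the CTRL arrays and 6.70 and 6.77 on the gamma_ON arrays, and EDNRB at 5.91 and 6.12 on the CTRL arrays and 5.20 and 5.37 on the gamma_ON arrays. The neuropeptide Y receptor NPY5R fell by 0.58 and its neighbour NPY1R was at -0.69 (SE 0.18, adjusted p = 0.106). GRPR, the bombesin-type receptor, fell by 1.94 on its brighter row and stood at 0.43 on the other, so its rows disagree. With an array left out, the call was lost for CALCR, EDN1, EDNRB and NPY5R whichever of the 4 arrays was left out (adjusted p 0.0588 to 0.358), for NTS without CTRL replicate 2, gamma_ON replicate 1 or gamma_ON replicate 2 (adjusted p 0.0842 to 0.0979), for GAL without CTRL replicate 1, CTRL replicate 2 or gamma_ON replicate 1 (adjusted p 0.0746 to 0.15), and for APLNR without CTRL replicate 2 or gamma_ON replicate 1 (adjusted p 0.0854 to 0.102). GRPR was called whichever of the 4 arrays was left out.

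Further groups of genes gave calls in both directions. Some of these groups, the RGS genes first, were picked after their values were seen. Of 22 measured genes of RGS proteins, which shorten G protein signals, RGS1, RGS13, RGS4 and the anchor RGS7BP were called higher. That is 18.2% against 0.739% of all genes, in a list picked for its values. None was called lower, but 12 of the 22 were negative and the median was -0.03. RGS1 stood at 4.15 and 4.20 on the CTRL arrays and 5.30 and 4.89 on the gamma_ON arrays and rose by 0.92 (SE 0.16, adjusted p = 0.03), and RGS13, its neighbour on the chromosome, rose by 0.72. RGS4 stood at 6.04 and 5.92 on the CTRL arrays and 6.60 and 6.60 on the gamma_ON arrays, a rise of 0.62. The vasopressin receptor AVPR1A rose by 0.84 and the cholecystokinin receptor CCKAR by 0.69. Both are peptide receptors outside the list counted above. Of 106 orphan and lipid G protein-coupled receptors ADGRG1, an adhesion receptor of neural progenitors, alone was called, a fall of 0.69 (SE 0.12, adjusted p = 0.0259). Vesicle genes moved in both directions. SYT4, an atypical synaptotagmin, stood at 6.82 and 6.71 on the CTRL arrays and 8.01 and 7.85 on the gamma_ON arrays and rose by 1.16 (SE 0.12, adjusted p = 0.00258). SYT11, its closest relative in the list, stood at 9.12 and 9.08 on the CTRL arrays and 7.94 and 8.00 on the gamma_ON arrays and fell by 1.13 (SE 0.11, adjusted p = 0.00209). Neither gene overlapped between the groups, and the other 42 members did not pass. Of 12 granule proteins picked likewise 1 was called higher and 2 lower, where 0.739% of all genes were called higher and 0.806% lower. SCG3, a granin that sorts peptides into granules, rose by 1.01, whereas VGF, a neuropeptide precursor, and NPTX2, a synaptic pentraxin, fell by 0.68 and 0.76. Of 10 measured peptidases, most of them on the cell surface and also picked in that way, 2 were called higher and 8 did not pass: DPP4 stood at 7.86 and 7.56 on the CTRL arrays and 8.97 and 9.08 on the gamma_ON arrays and rose by 1.31 (SE 0.14, adjusted p = 0.00272), and the aminopeptidase ANPEP rose by 0.83. Their relatives MME and ENPEP were at 0.59 (SE 0.12, adjusted p = 0.0549) and 0.63 (SE 0.18, adjusted p = 0.13). Leaving out an array ended the call for RGS1, RGS13, RGS4, RGS7BP, CCKAR, ADGRG1, SCG3, VGF, NPTX2 and ANPEP whichever of the 4 arrays was left out (adjusted p 0.0568 to 0.348), for AVPR1A without CTRL replicate 2, gamma_ON replicate 1 or gamma_ON replicate 2 (adjusted p 0.165 to 0.229), and for DPP4 without gamma_ON replicate 2 (adjusted p = 0.0513). SYT4 and SYT11 were called whichever of the 4 arrays was left out.

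Adhesion genes of neural type were lower where they were called, and desmosomal ones higher. DCC, a netrin receptor that steers axons, stood at 8.37 and 7.83 on the CTRL arrays and 6.63 and 6.71 on the gamma_ON arrays and fell by 1.43 (SE 0.17, adjusted p = 0.00459); it was the 1 call among 51 guidance genes, whose median was -0.01. CADM4, an immunoglobulin-type adhesion molecule of glia, stood at 9.08 and 8.90 on the CTRL arrays and 8.19 and 8.14 on the gamma_ON arrays and fell by 0.83 (SE 0.12, adjusted p = 0.0124), and the other 40 genes of its list, among them CNTN1 at 0.68 (SE 0.16, adjusted p = 0.0865), did not pass. PCDHB4, PCDHB3 and PCDHB6, of the clustered protocadherins that give neurons their surface identity, fell by 0.94, 0.87 and 0.86. PCDHB4 stood at 5.93 and 6.27 on the CTRL arrays and 5.06 and 5.27 on the gamma_ON arrays, with no overlap. The other 13 measured genes of that cluster, which share sequence, lay between -0.41 and 0.36 and did not pass. The desmosomal cadherins DSC3 and DSC2, which join epithelial cells and lie side by side, rose by 0.75 (SE 0.14, adjusted p = 0.0339) and 0.69 (SE 0.12, adjusted p = 0.0304). DSC3 stood at 6.33 and 6.56 on the CTRL arrays and 7.26 and 7.12 on the gamma_ON arrays and DSC2 at 9.44 and 9.39 on the CTRL arrays and 10.15 and 10.07 on the gamma_ON arrays. Neither overlapped, and the partner DSG2 was at 0.31. Of 7 measured desmosomal cadherins 2 were called higher and 5 did not pass, with a median of 0.15. Of 16 measured genes of the PCDHB cluster 3 were called lower. The shares of all genes were 0.739% called higher and 0.806% called lower. Both of these gene lists were picked after their values were seen, and their counts are descriptions. Over all 51 cadherins and protocadherins the median was -0.08. Not every call held with fewer arrays: it was lost for CADM4, PCDHB3, PCDHB6, DSC3 and DSC2 whichever of the 4 arrays was left out (adjusted p 0.055 to 0.323), for PCDHB4 without CTRL replicate 2, gamma_ON replicate 1 or gamma_ON replicate 2 (adjusted p 0.107 to 0.235), and for DCC without gamma_ON replicate 1 or gamma_ON replicate 2 (adjusted p 0.0568 to 0.0717).

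Of 64 matrix genes VTN and TIMP4 rose and THBS1 and GPC4 fell, with a median of -0.10 and 44 of 64 negative. These calls were 6.25% of the list, against 1.55% of all genes. Of all genes 0.739% were called higher, 0.806% were called lower and 45.6% had a negative difference. VTN encodes vitronectin, a plasma and matrix protein made by liver, and rose by 1.74 (SE 0.15). TIMP4, an inhibitor of matrix metalloproteinases, stood at 6.69 and 6.48 on the CTRL arrays and 7.94 and 7.63 on the gamma_ON arrays and rose by 1.20 (SE 0.14, adjusted p = 0.00459). THBS1, which encodes thrombospondin 1, stood at 10.32 and 10.37 on the CTRL arrays and 9.55 and 9.40 on the gamma_ON arrays and fell by 0.87 (SE 0.14, adjusted p = 0.0231). GPC4, a heparan sulfate proteoglycan that presents growth factors, stood at 11.24 and 11.52 on the CTRL arrays and 10.78 and 10.67 on the gamma_ON arrays and fell by 0.65 (SE 0.13, adjusted p = 0.0476). Each gene had groups that did not overlap. HSPG2, which encodes perlecan, was at -0.67 (SE 0.14, adjusted p = 0.0586) and AGRN, agrin, at -0.55. Of 12 chondromodulin-type and small leucine-rich matrix genes, chosen after values were seen, 3 rose and 9 did not pass, 4 of the 12 being negative: FMOD, fibromodulin, rose by 1.41 (SE 0.14, adjusted p = 0.00226), CNMD, chondromodulin, by 1.06, and its relative TNMD, tenomodulin, by 0.82; LUM, lumican, was at 0.86 (SE 0.20, adjusted p = 0.0789). Contractile and mechanosensitive genes were lower where they were called. TPM1, tropomyosin, and TAGLN, transgelin, were the called members of 24 actin genes, with falls of 0.75 (SE 0.12) and 0.62 (SE 0.11), and VCL, vinculin, was at -0.74 (SE 0.16, adjusted p = 0.0668). CCN2, a matricellular target of YAP and TEAD, stood at 10.90 and 11.01 on the CTRL arrays and 9.94 and 9.73 on the gamma_ON arrays and fell by 1.12 (SE 0.12, adjusted p = 0.00371), and its other row gave -0.94. ANKRD1, a further target, was at -0.70 (SE 0.14, adjusted p = 0.0538), and the list of 17 had a median of -0.05. CAVIN1, a coat protein of caveolae, ICAM1, an adhesion receptor for leukocytes, and PDGFB, a growth factor, also chosen after their values were seen, fell by 0.88, 0.97 and 0.70. On 5 arrays the call was lost for THBS1, GPC4, TPM1, TAGLN and PDGFB whichever of the 4 arrays was left out (adjusted p 0.0949 to 0.377), for CNMD, TNMD and CAVIN1 without CTRL replicate 2, gamma_ON replicate 1 or gamma_ON replicate 2 (adjusted p 0.0619 to 0.235), for ICAM1 without CTRL replicate 1, CTRL replicate 2 or gamma_ON replicate 2 (adjusted p 0.0631 to 0.0869), for TIMP4 without CTRL replicate 2 or gamma_ON replicate 1 (adjusted p = 0.0675), and for CCN2 without CTRL replicate 2 or gamma_ON replicate 2 (adjusted p 0.0568 to 0.0587). VTN and FMOD were called whichever of the 4 arrays was left out.

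**Figure D4:**
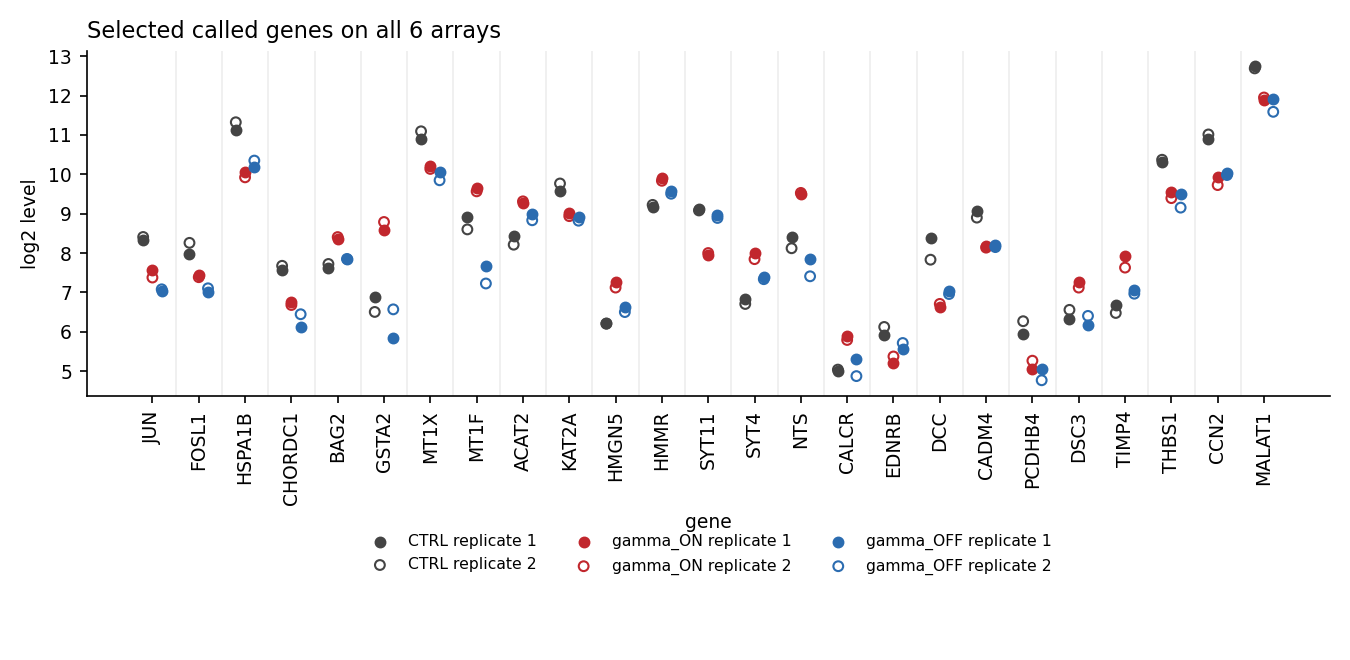
Log2 level (y axis) of 25 called genes from the classes above on all 6 arrays, dark grey for CTRL, red for gamma_ON and blue for gamma_OFF, filled for replicate 1 and open for replicate 2. In each gene the gamma_ON points are apart from the CTRL points, a pattern of 52.4% of all genes that the choice of genes favoured. For SYT11 the gamma_ON points lie at 7.94 and 8.00 against 9.12 and 9.08 for CTRL. Heights of different genes are not comparable.

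Of the secreted signals, LEFTY2, an inhibitor of NODAL, stood at 7.76 and 7.74 on the CTRL arrays and 6.96 and 6.54 on the gamma_ON arrays and fell by 1.00 (SE 0.16, adjusted p = 0.0196). NODAL itself rose by 0.76 (SE 0.11) on its brighter row and was at 0.05 on the other, and LEFTY1, the second inhibitor, was at -0.27 (SE 0.14, adjusted p = 0.411). GDF3 and BMP4, ligands of the same family, rose by 1.98 and 0.76; over its 37 genes the median was 0.01. LEFTY2 did not overlap between the groups. DKK4, a secreted WNT inhibitor, rose by 1.18 (SE 0.16), and LEF1, a nuclear partner of beta-catenin, was at 0.74 (SE 0.23, adjusted p = 0.161). None of 35 FGF genes was called by limma, 7 had an unadjusted p under 0.05, and FGF2 was at -0.42 (SE 0.12, adjusted p = 0.151). The antiviral membrane protein BST2 stood at 8.51 and 8.86 on the CTRL arrays and 7.73 and 7.66 on the gamma_ON arrays and fell by 0.99 (SE 0.14, adjusted p = 0.0136), the 1 call of 28 interferon and antigen presentation genes. CXCR4, a chemokine receptor, fell by 0.62, the 1 call of 98 chemokine and interleukin genes. The call was lost for NODAL, BMP4 and CXCR4 whichever of the 4 arrays was left out (adjusted p 0.0803 to 0.288), for LEFTY2 without CTRL replicate 1, CTRL replicate 2 or gamma_ON replicate 2 (adjusted p 0.108 to 0.136), and for DKK4 and BST2 without CTRL replicate 2, gamma_ON replicate 1 or gamma_ON replicate 2 (adjusted p 0.0756 to 0.131). GDF3 was called whichever of the 4 arrays was left out.

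Of 471 measured genes named ZNF, most of which encode repressors of transposable elements, 2 rose, ZNF732 and ZNF480. ZNF732 stood at 6.94 and 6.96 on the CTRL arrays and 8.60 and 8.55 on the gamma_ON arrays and rose by 1.62 (SE 0.14, adjusted p = 0.000755), and ZNF480 by 0.84 (SE 0.14, adjusted p = 0.0261). Both were higher on each gamma_ON array. FOXO4, a factor restrained by AKT, and TBX22, a T-box factor of the palate, rose by 0.77 and 0.82, beside EOMES at 1.18. BMAL2, a clock factor, rose by 0.58, and its relative BMAL1 was at 0.42 (SE 0.14, adjusted p = 0.189). None of 27 HOX genes was called by limma and 3 had an unadjusted p under 0.05, with HOXA2 at -0.62 (SE 0.16, adjusted p = 0.114). Among 23 imprinted genes DLK1, a NOTCH-like ligand expressed from the paternal copy, and KCNQ1OT1, the noncoding RNA that silences its cluster, fell by 0.85 and 0.81. Of all genes 0.806% were called lower. Of 51 germline and testis genes CABYR, a calcium-binding protein of the sperm tail, was the 1 call. CABYR stood at 7.30 and 7.36 on the CTRL arrays and 5.90 and 5.73 on the gamma_ON arrays, a fall of 1.52 (SE 0.13, adjusted p = 0.000754), with the groups apart. With an array left out, the call was lost for ZNF480, FOXO4, TBX22, BMAL2, DLK1 and KCNQ1OT1 whichever of the 4 arrays was left out (adjusted p 0.0529 to 0.347), and for EOMES without gamma_ON replicate 1 (adjusted p = 0.0522). ZNF732 and CABYR were called whichever of the 4 arrays was left out.

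By RefSeq gene order the called genes were scattered. Median differences per chromosome lay between -0.02, on chromosome 21, and 0.05, on chromosome 18. There were 13 runs of neighbouring measured genes called in the same direction, 7 higher and 6 lower, with 27 genes in all. Besides the fibrinogen genes FGB, FGA and FGG and the apolipoprotein pair APOA4 and APOC3, the higher runs were RGS1 with RGS13, DSC3 with DSC2, GSTA2 with GSTA1, LRRN4 with FERMT1 and TBCCD1 with AHSG. The lower runs included MIR19B2 with MIR20B, PCDHB3 with PCDHB4, HSPA1A with HSPA1B and GDF15 with MIR3189, and the 4 named here are families or nested genes.

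The gamma_OFF vector, with H2A.X that cannot be phosphorylated at these residues, was measured against the same 2 CTRL arrays, so the differences of the 2 vectors from CTRL share those arrays and are given side by side. The direct contrast of gamma_ON with gamma_OFF shows where the H2A.X vectors differed; limma called 5.99% of all genes in it, and 8.85% in gamma_OFF against CTRL. The contrast was called for 72 of the 110 genes higher and 16 of the 120 genes lower in gamma_ON than in CTRL; it shares the gamma_ON arrays with the comparison that chose them, so these counts are descriptions. Several genes that rose in gamma_ON were lower in gamma_OFF than in gamma_ON. ZNF732 stood at 1.62 in gamma_ON and -1.96 in gamma_OFF (gamma_ON against gamma_OFF 3.58, adjusted p = 7.25e-06). GSTA2 stood at 2.00 in gamma_ON and -0.49 in gamma_OFF (contrast 2.49, adjusted p = 0.00106), and NTS at 1.26 in gamma_ON and -0.63 in gamma_OFF (contrast 1.88, adjusted p = 0.000905). Likewise the direct contrast was called for APLNR (1.54, adjusted p = 0.0028), DPP4 (1.46, adjusted p = 0.0013), CALCR (0.74, adjusted p = 0.0379), MIR4521 (1.21, adjusted p = 0.00238) and MT1F (2.17, adjusted p = 0.000357). Some genes that fell in gamma_ON also differed between the vectors. SYT11 stood at -1.13 in gamma_ON and -0.17 in gamma_OFF (contrast -0.96, adjusted p = 0.00406), CABYR at -1.52 in gamma_ON and 0.38 in gamma_OFF (contrast -1.90, adjusted p = 0.000176), and LEFTY2, which fell by 1.00 in gamma_ON, at 0.74 in gamma_OFF (contrast -1.74, adjusted p = 0.000995). GPC4 had a contrast of -1.02 (adjusted p = 0.00609). The call of this contrast was lost for CALCR without CTRL replicate 1, CTRL replicate 2, gamma_ON replicate 1, gamma_ON replicate 2 or gamma_OFF replicate 2 (adjusted p 0.0659 to 0.268), SYT11 without gamma_ON replicate 1 (adjusted p = 0.066), GPC4 without gamma_ON replicate 1 or gamma_ON replicate 2 (adjusted p 0.0608 to 0.0649), and for none of the other 9 genes. For other genes the direct contrast did not pass, which does not show that the vectors act alike. JUN stood at -0.89 in gamma_ON and -1.31 in gamma_OFF (contrast adjusted p = 0.0668), HSPA1B at -1.24 in gamma_ON and -0.96 in gamma_OFF (adjusted p = 0.167), CCN2 at -1.12 in gamma_ON and -0.94 in gamma_OFF (adjusted p = 0.331), DCC at -1.43 in gamma_ON and -1.10 in gamma_OFF (adjusted p = 0.201), MIR19B2 at -2.07 in gamma_ON and -2.31 in gamma_OFF (adjusted p = 0.467) and MT1X at -0.82 in gamma_ON and -1.03 in gamma_OFF (adjusted p = 0.265). The median of the licensing genes was 0.37 in gamma_ON and 0.06 in gamma_OFF, and that of the microRNA rows -0.05 and 0.14. In the same order the medians were -0.19 and -0.51 for p53 targets, -0.17 and -0.34 for immediate early genes and -0.19 and -0.18 for the integrated stress response. They were -0.25 and -0.48 for scaRNAs, -1.11 and -0.98 for the MIR106A to MIR363 cluster, 0.21 and -0.02 for cholesterol synthesis and -0.11 and -0.09 for heat shock proteins.

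**Figure D5:**
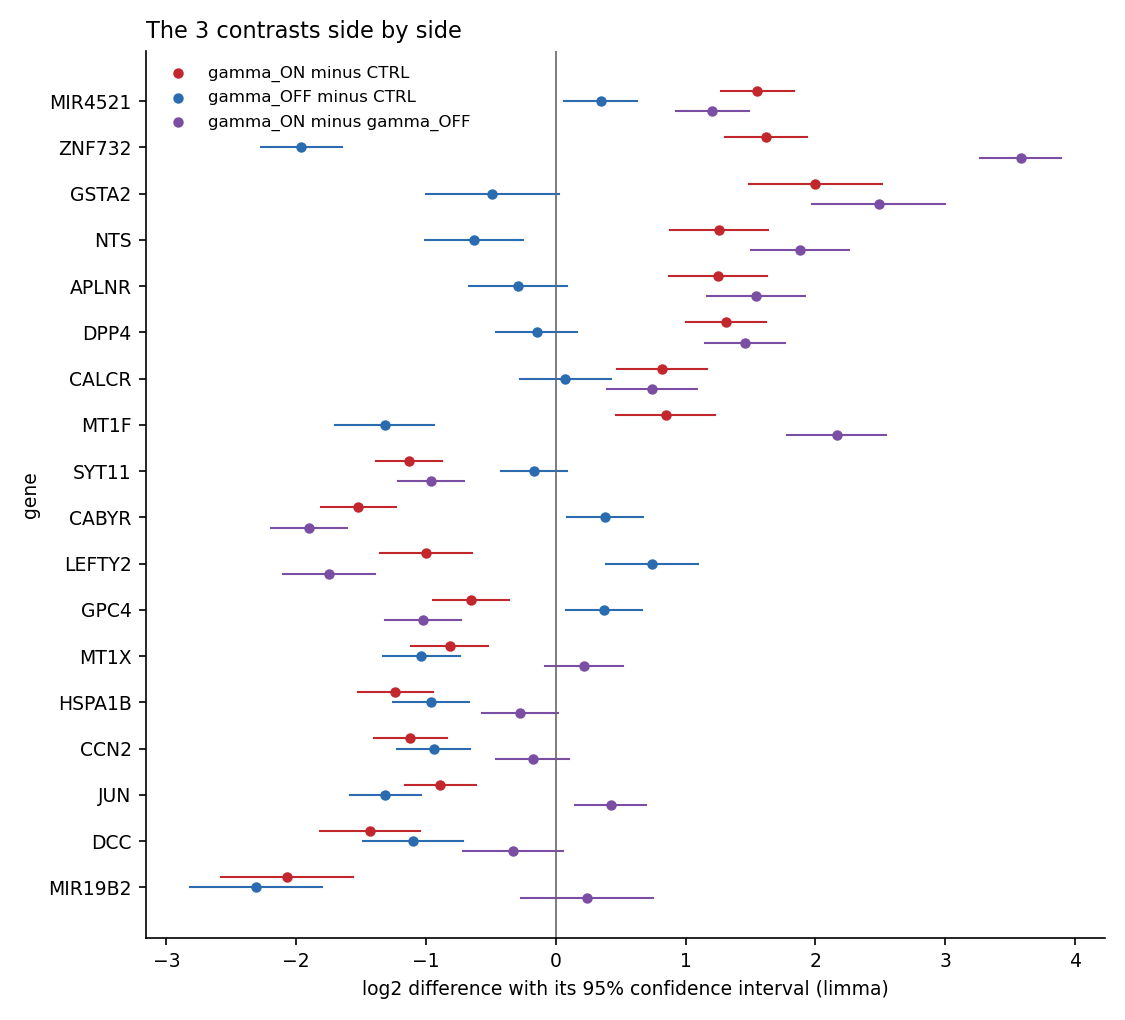
Log2 differences of 18 genes (y axis) with their 95% confidence intervals from limma, red for gamma_ON minus CTRL, blue for gamma_OFF minus CTRL and purple for gamma_ON minus gamma_OFF; the red and blue values share the CTRL arrays. For ZNF732 the red and blue points lie at 1.62 and -1.96, on opposite sides of 0, and for MIR19B2 both lie below 0, at -2.07 and -2.31.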

How the data were processed

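RNA was hybridised to Affymetrix HuGene-2.0-st arrays, 1 array per sample. The deposited table gives log2 levels for 53617 rows on 6 arrays; RMA and Partek 6.6 are named in the submitters' processing notes, while for options, genome build and annotation nothing is given in the sources used here, so the normalization between arrays cannot be undone. Platform annotation gave 1 gene symbol for 16098 rows and none for 37519, and 0 rows had several. The brightest row was kept for the 779 genes with several rows, giving 14884 genes. Array medians lay between 6.11 and 6.25. Groups were taken from the labels. A linear model over the 6 arrays with moderated variance (limma 3.58.1, R 4.3.3) gave the contrasts, with Benjamini-Hochberg adjustment over all genes and a call at an adjusted p under 0.05; precision is limited by the number of arrays, and with 2 arrays a side no exact two-sided test can give less than p = 0.333. The script was tested on simulated data. Tables were handled with Python 3.11.15, pandas 2.3.3 and numpy 2.4.6. Named genes were the 15 highest and 15 lowest called genes without overlap (unnamed loci, small RNAs, olfactory receptors and antisense symbols left out), every called member of a gene list and up to 3 uncalled members per list with the largest difference. List members named for their role and genes outside the lists were chosen after their values were seen. The members and lists were chosen with earlier results of these data known. Lists with fewer than 5 measured members were left out, apart from MIR371A to MIR373. Some lists hold pseudogenes of a family, such as PCDHB17P, MT1L and UQCRBP1. Biotypes, gene order, promoters and mature microRNAs came from RefSeq (GRCh38.p14), and no coordinates of the array's own build were used. Alternatives were the arrays in the fit, a replicate block, each array left out, dim genes left out, the spread model, array weights, quantile normalization, the mean of all rows and a threshold of 0.10; those for counts by kind of transcript and for the direct contrast of the H2A.X vectors were chosen after seeing the data.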

Additional observations from a re-analysis of the deposited data

How the results depend on the processing

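No called gene named in the text changed direction under the alternatives run, while 30 of 95 list medians changed sign under at least 1 setting, none of them larger than 0.12 in size. With an array left out in turn, the called genes numbered 34 to 487, the higher 24 to 271 and the lower 8 to 216; the highest values came from leaving out a gamma_OFF array, which leaves the spread to CTRL and gamma_ON, as does a fit on those 4 arrays (487, of which 271 higher and 216 lower). The total was 381 (206 higher) with an intensity trend and robust fitting, 803 (445 higher, 358 lower) with array weights and 508 (266 higher, 242 lower) at an adjusted p under 0.10. With dim genes left out 187 were higher, and after quantile normalization 79 were lower. MicroRNA rows, whose alternatives were chosen after seeing the data, numbered 1 to 6 higher and 4 to 46 lower with an array left out. They were 46 lower in the fit on 4 arrays, 12 higher and 68 lower with array weights, 2 higher and 8 lower with dim genes left out, 14 lower after quantile normalization and 48 lower at an adjusted p under 0.10. The cause of these shifts in number was not tested. The replicate numbers did not pair the arrays, with correlations of deviations from group means between -0.096 and 0.088, and the replicate block gave 210 calls, 109 higher and 101 lower. Of 119 called genes named in the text, 19 were called whichever CTRL or gamma_ON array was left out. Signal near background limits the microRNA rows.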
